A study of Mus musculus with 6 samples.

Results

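Il2ra, Il2rb, Il4ra, Il7r, Il15ra and Il21r encode receptor chains for the cytokines that signal through the common gamma chain, and Il15 encodes one of these cytokines. These 7 genes were taken by name out of 21887 protein-coding genes. They were selected on a review of earlier DTR against WT results of the same peak lists, so every difference between the groups below is a description without a test. Their open chromatin was the set of peaks that overlapped a gene body extended by 10 kb on each side. The common gamma chain, encoded by Il2rg, pairs with a chain that binds a particular cytokine and passes the signal on through the kinases JAK1 and JAK3 to STAT proteins. Through these receptors lymphocytes receive signals for survival and division. In monocytes and macrophages, IL-4 acts through the receptor chain encoded by Il4ra, and IL-15 is displayed to neighbouring cells on the chain encoded by Il15ra.

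Aliquots of 50000 blood monocytes were used for ATAC-seq, an assay that marks accessible DNA by letting the Tn5 transposase insert adapters there. The DTR group held 3 libraries from PF4cre-iDTR mice that had received diphtheria toxin, and the WT group held 3 libraries from wild-type mice that had received the same toxin. In PF4cre-iDTR mice the promoter of Pf4, a gene of megakaryocytes and platelets, drives Cre, which switches on a receptor for the toxin, and the labels call these mice thrombocytopenic and the WT mice controls. The labels do not describe the age or sex of the mice, or whether a library came from 1 animal or a pool, so the spread between libraries may be technical.

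Each library had its own list of broad peaks, with 81567 to 84029 peaks in DTR lists and 77867 to 80475 in WT lists. The fold of a peak is the enrichment that the authors' peak caller gave it. Read depth is unknown, since the lists hold no counts. Over the 68712 regions with a peak in all 6 libraries, the median width was 549 to 569 bp in DTR libraries and 507 to 550 bp in WT libraries, and WT library 2 had the narrowest peaks. The cell type label was checked on marker promoters: 9 of 9 promoters of monocyte markers had a peak in every library. None of the 4 promoters of B cell markers that were looked up had a peak in any library. Of T and NK cell markers 11 of 14 had none, among them those of Cd3d, Cd3e, Cd3g, Cd8a, Lck, Ncr1 and Prf1. The other 3, of Klrb1c, Tbx21 and Tcf7, had one in all 6 libraries. Away from the promoters, Cd3d and Cd3g had a peak within 10 kb in every library, with highest folds of 9.77 to 11.2. Marker promoters of other cells had peaks too, in all 6 libraries at 4 of 8 of neutrophils and 3 of 6 of dendritic cells. Of megakaryocytes and platelets 1 of 7 did, that of Pf4, the gene whose promoter drives Cre in the DTR mice. Peaks in only some libraries lay at the promoters of Camp and Itga2b, in 3 DTR and 1 WT libraries each. The promoter of Ly6g had one in 3 DTR and 2 WT libraries. The part of such cells in the values below was not tested.

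The RefSeq promoters of the family differed first in whether they held a peak. At Il2ra, which encodes the alpha chain that raises the affinity of the IL-2 receptor, no library of either group had a peak over the window from 250 bases before to 50 after the gene's start. At Il7r, Il4ra, Il15ra and Il21r all 6 libraries had one. The bases before the start of these 5 genes, as far as they lie outside the gene body, are shown to set the promoter without a peak beside those with one. Capitals mark matches to 7 short motifs, searched on both strands in the 250 bases before each start.

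Il2ra (GRCm38.p6, chr2:11642542-11642791, plus strand, no peak): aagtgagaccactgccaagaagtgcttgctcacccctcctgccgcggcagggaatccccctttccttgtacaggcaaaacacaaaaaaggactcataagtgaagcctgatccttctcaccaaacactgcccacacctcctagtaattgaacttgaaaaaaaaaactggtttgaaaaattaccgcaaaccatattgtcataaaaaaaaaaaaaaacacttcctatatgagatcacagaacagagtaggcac
Il7r (GRCm38.p6, chr15:9529942-9530126, minus strand, peak in all libraries): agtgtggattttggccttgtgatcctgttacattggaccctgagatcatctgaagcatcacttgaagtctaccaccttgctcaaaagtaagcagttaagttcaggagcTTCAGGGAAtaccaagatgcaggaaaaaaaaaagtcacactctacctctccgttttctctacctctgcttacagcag
Il4ra (GRCm38.p6, chr7:125552021-125552270, plus strand, peak in all libraries): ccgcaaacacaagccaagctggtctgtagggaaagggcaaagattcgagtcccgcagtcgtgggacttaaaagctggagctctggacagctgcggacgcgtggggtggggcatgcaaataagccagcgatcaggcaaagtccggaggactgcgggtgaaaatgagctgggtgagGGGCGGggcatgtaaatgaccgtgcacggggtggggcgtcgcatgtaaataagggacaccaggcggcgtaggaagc
Il15ra (GRCm38.p6, chr2:11705043-11705171, plus strand, peak in all libraries over the start, beginning past these bases): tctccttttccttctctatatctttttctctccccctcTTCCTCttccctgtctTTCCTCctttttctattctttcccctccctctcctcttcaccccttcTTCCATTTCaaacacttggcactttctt
Il21r (GRCm38.p6, chr7:125603179-125603251, plus strand, peak in all libraries): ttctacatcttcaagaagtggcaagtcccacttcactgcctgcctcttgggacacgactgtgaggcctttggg

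The 250 bases before the Il2ra start held 0 matches to any of the 7 motifs and had 42.4% G or C. Those of Il7r had 44.0% G or C and 1 match to the STAT motif TTCNNNGAA, whose first base lay 142 bases before the start. This motif was present in 7.02% of the 32851 promoters of the table. Il4ra had 59.6% G or C and 1 match to the GC box GGGCGG (32.7% of all promoters). At the first of the 2 start sites of Il15ra there were 2 matches to GAGGAA on the opposite strand, a form preferred by the ETS factor PU.1 (23.3% of all promoters), and 1 to the interferon motif GAAANNGAA (7.13%). The second Il15ra start had 1 match to the AP-1 motif TGANTCA (6.75%). Il21r had a GC box and a RUNX motif, TGTGGT (14.0%), both in bases inside the gene body that are not printed. The TATA box TATAAA (12.4% of all promoters) had 0 matches in any of them. No matches overlapped. A match only describes these letters, and 0 matches say nothing about whether a factor binds.

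Neither width nor fold set the groups apart at any of the 4 promoters with a peak. At Il4ra the region at the start (chromosome 7, 125551200 to 125552681) had widths of 1482, 1458 and 1456 bp in DTR libraries and of 1458, 1435 and 1431 bp in WT libraries. Its folds were 4.10, 3.99 and 4.12 in DTR libraries, against 4.11, 4.07 and 4.33 in WT libraries. Both measures overlapped between the groups. The Il21r start (chromosome 7, 125603148 to 125603668), of the gene for the IL-21 receptor, was 504 to 521 bp wide in DTR libraries and 498 to 516 bp in WT libraries. The Il7r start (chromosome 15, 9529590 to 9530299), of the chain that binds IL-7, measured 659 to 695 bp in DTR libraries and 631 to 671 bp in WT libraries, and the Il15ra start (chromosome 2, 11705228 to 11706160) 753 to 927 bp against 743 to 890 bp. The median coefficient of variation of width over the 6 libraries was 2.64% for these 4 regions and 8.41% for the other 37 regions of all libraries, although the Il15ra promoter, at 9.74%, lay above that. The other 37 ran from 0.907% to 31.5%, and 4 regions are too few to compare promoters with other regions.

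Il2rb and Il15 were described from their gene ends. Il2rb encodes the beta chain shared by the IL-2 and IL-15 receptors. No peak lay on either of its ends, and the nearest region was 948 bp inside the upper end (chromosome 15, 78510239 to 78510673). The upper end of Il15 was covered by a region (chromosome 8, 82401191 to 82403353) in all 6 libraries. It was 1 peak in DTR library 3 and in WT library 1 and 2 peaks in the other libraries, so the same stretch counts differently.

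Together the 7 loci held 48 merged regions, of which 41 had a peak in all 6 libraries, 4 lay at a promoter and 33 in a gene body or at its end. No region fell in the windows of more than 1 of the 7 genes, although Il15ra follows 11977 bp after Il2ra and Il21r 23777 bp after Il4ra. The window reached regions up to 9376 bp from a gene (near Il4ra, folds 3.82 to 4.36 over the 6 libraries), and the nearest region outside it lay 10985 bp from Il4ra (folds 3.87 to 4.98).

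**Figure D1:**
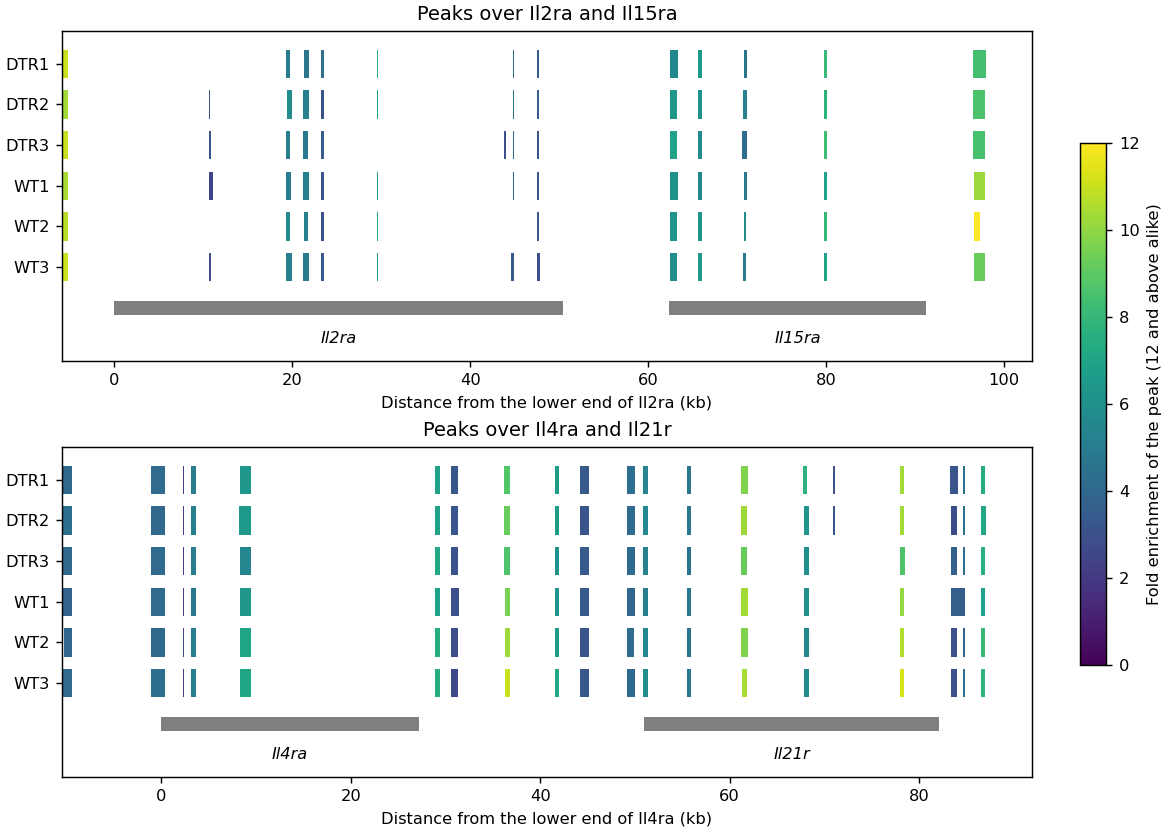
Peaks of each library (rows, DTR above WT) over Il2ra with Il15ra and Il4ra with Il21r, by distance in kb from the lower end of the first gene, with gene bodies as grey bars and colour for the authors' fold. The start of Il2ra, at distance 0, carries no peak in any library, while that of Il4ra carries one in all 6.

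The family differed in how much of each locus was open, given here as the summed width of a gene's peaks in percent of its window. Parts of a peak beyond the window were counted too. Averaged over the 6 libraries, this percentage was 13.4% at Il4ra, 11.9% at Il21r, 6.57% at Il15ra, 5.75% at Il15, 3.94% at Il2ra, 3.71% at Il7r and 3.33% at Il2rb. The 6 libraries ranged from 12.9% to 13.7% at Il4ra and from 11.1% to 12.9% at Il21r. At Il4ra a peak of every library, in the region from 125541832 to 125542895, reached past the window. The order of these neighbours within their windows is therefore not settled. Il15ra (4.74% to 7.19%) and Il15 (4.73% to 6.96%) overlapped. Il2ra (3.17% to 4.45%), Il7r (3.29% to 4.02%) and Il2rb (2.91% to 4.01%) also overlapped among themselves. Of the 16831 protein-coding genes with a peak in their window, 93.0% were less covered than Il4ra and 31.1% less than Il2rb.

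The number of peaks did not set the groups apart at any of the 7 genes. Over all loci there were 48, 48 and 46 peaks in DTR libraries and 45, 47 and 47 in WT libraries, or 47.3 ± 1.15 against 46.3 ± 1.15 (SD, n = 3 each). The ranges overlapped, and the difference of 1 peak was smaller than either SD. Il4ra had 8 and Il15ra 5 peaks in every library. Il21r had 12, 12 and 11 peaks in DTR libraries and 10, 11 and 11 in WT libraries, and Il2rb 4 in each DTR library and 4, 5 and 5 in WT libraries. Il2ra had 7, 8 and 8 against 8, 6 and 8, Il15 8, 7 and 6 against 6, 8 and 7, and Il7r 4 in each DTR library against 4, 4 and 3. Among all genes with a peak, 2.99% had more peaks in every DTR than in any WT library and 0.345% fewer, while 0 of the 7 did either.

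**Figure D2:**
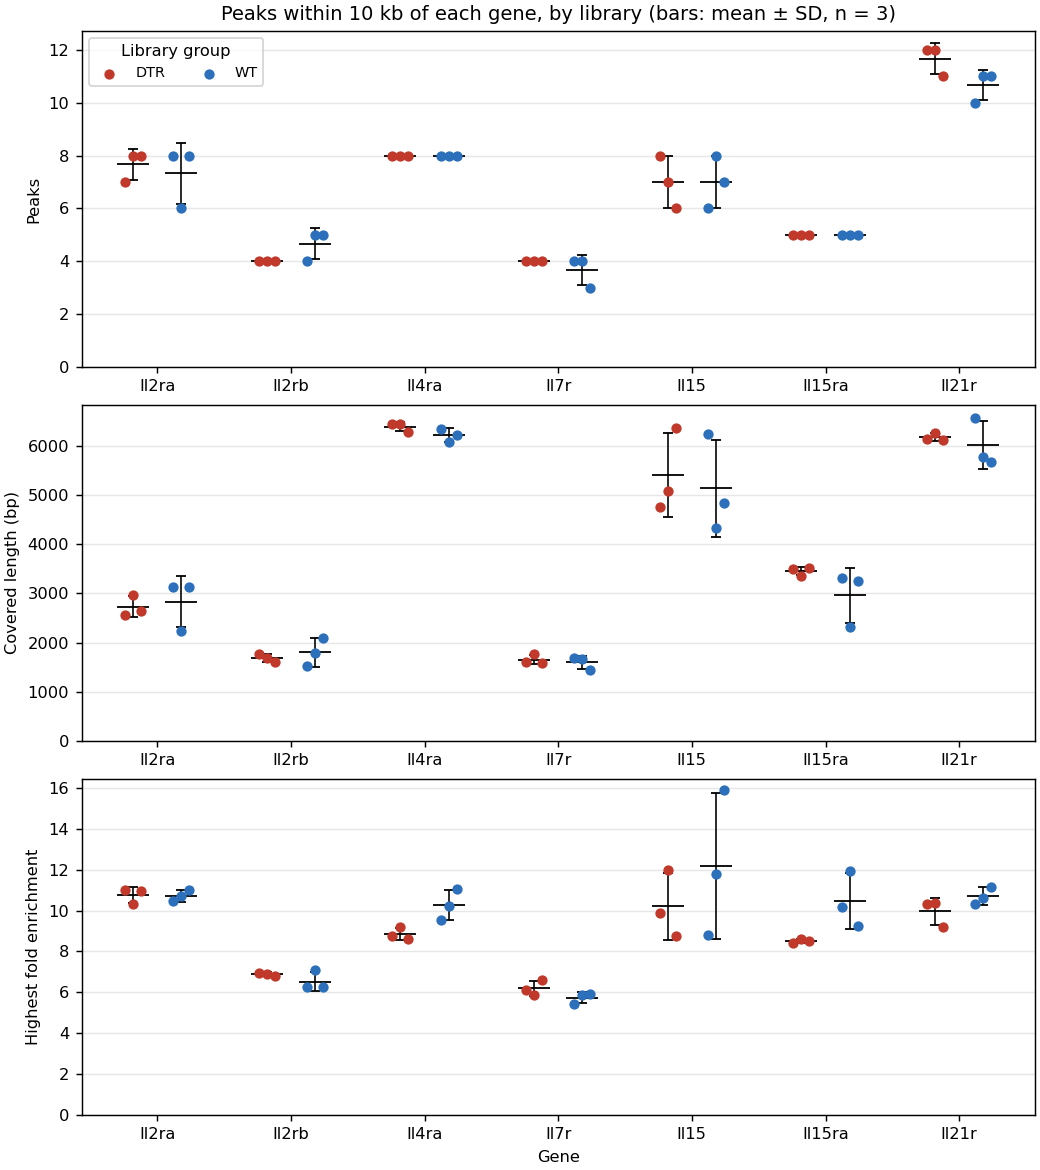
Number of peaks, covered length in bp and highest fold within 10 kb of each gene, with a point per library, DTR left of WT, and bars for mean ± SD (n = 3). The groups stand apart in covered length at Il15ra and in highest fold at Il4ra and Il15ra, and overlap at the other genes.

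In covered length 1 of the 7 genes stood apart. At Il15ra, whose product holds IL-15 with high affinity, peaks covered 3487, 3359 and 3512 bp in DTR libraries and 3308, 2314 and 3255 bp in WT libraries (3453 ± 82.1 against 2959 ± 559 bp; SD, n = 3 each). All DTR values lay above all WT values, and WT library 2 was far below the other libraries. The difference of 494 bp was 171 bp without that library. In the gene body alone, with no extension, the groups overlapped, at 2098, 1986 and 2126 bp in DTR libraries and 2047, 1721 and 1962 bp in WT libraries, and they also overlapped with an extension of 50 kb. Longer cover in every DTR library held for 19.5% of all genes with a peak, and shorter cover for 0.844%. Over the 7 loci together, cover was 26787, 27581 and 28136 bp in DTR libraries and 28815, 24176 and 26655 bp in WT libraries. These overlapped, and the difference of 953 bp (27501 ± 678 in DTR against 26549 ± 2321 in WT; SD, n = 3 each) was below the WT SD. Without WT library 2 it was −234 bp. The median log2 ratio of cover, DTR over WT, was 0.04 over the 7 genes and 0.07 over the 16589 genes with peaks in both groups.

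The strongest peak of a locus had a lower fold in every DTR library at 2 of the 7 genes, Il4ra and Il15ra. At Il4ra the highest fold was 8.76, 9.20 and 8.63 in DTR libraries and 9.55, 10.2 and 11.1 in WT libraries. At Il15ra it was 8.41, 8.62 and 8.51 in DTR libraries, against 10.2, 11.9 and 9.25 in WT libraries. A lower highest fold in every DTR library held for 4.75% of the 16247 genes with a peak in all libraries, and a higher one for 7.99% of them and for 0 of the 7. Neither gene stood apart with no extension. In the gene body alone, the Il15ra difference, DTR minus WT, was 0.764 in place of −1.94, with highest folds of 7.71 to 8.25 in DTR libraries and 6.84 to 7.96 in WT libraries, which overlapped. With the extension but without WT library 2 it was −1.20. In the gene body of Il4ra the highest folds were 5.49 to 6.51 in DTR libraries and 6.42 to 7.10 in WT libraries, which overlapped, and the difference was −0.715 in place of −1.41. Both strongest peaks lay outside the gene bodies, and they are described next.

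Beyond Il4ra lay a region (chromosome 7, 125588423 to 125589097) 8949 bp from the gene body and 14155 bp from Il21r, the nearest other coding gene. Its width was 650, 664 and 675 bp in DTR libraries and 558, 536 and 508 bp in WT libraries. Its folds were 8.76, 9.20 and 8.63 in DTR libraries and 9.55, 10.2 and 11.1 in WT libraries. The groups stood apart in both measures and in opposite directions. The product of fold and width was 5693, 6108 and 5827 in DTR libraries and 5330, 5483 and 5614 in WT libraries, higher in every DTR library.

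Beyond Il15ra lay the other one (chromosome 2, 11739326 to 11740718), 5341 bp from Il15ra and 1855 bp from Fbh1, the gene of a DNA helicase. It was 1389, 1373 and 1386 bp wide in DTR libraries and 1261, 593 and 1293 bp in WT libraries, with folds of 8.41, 8.62 and 8.51 against 10.2, 11.9 and 9.25. Here too every DTR peak was wider and had a lower fold, and WT library 2 had the narrowest peak with the highest fold. The products of fold and width overlapped, at 11687 to 11837 in DTR and 7081 to 12839 in WT libraries. These were the only 2 of the 41 regions that were both wider and lower in fold in every DTR library, which held for 1.86% of the 68712 regions of all libraries.

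**Figure D3:**
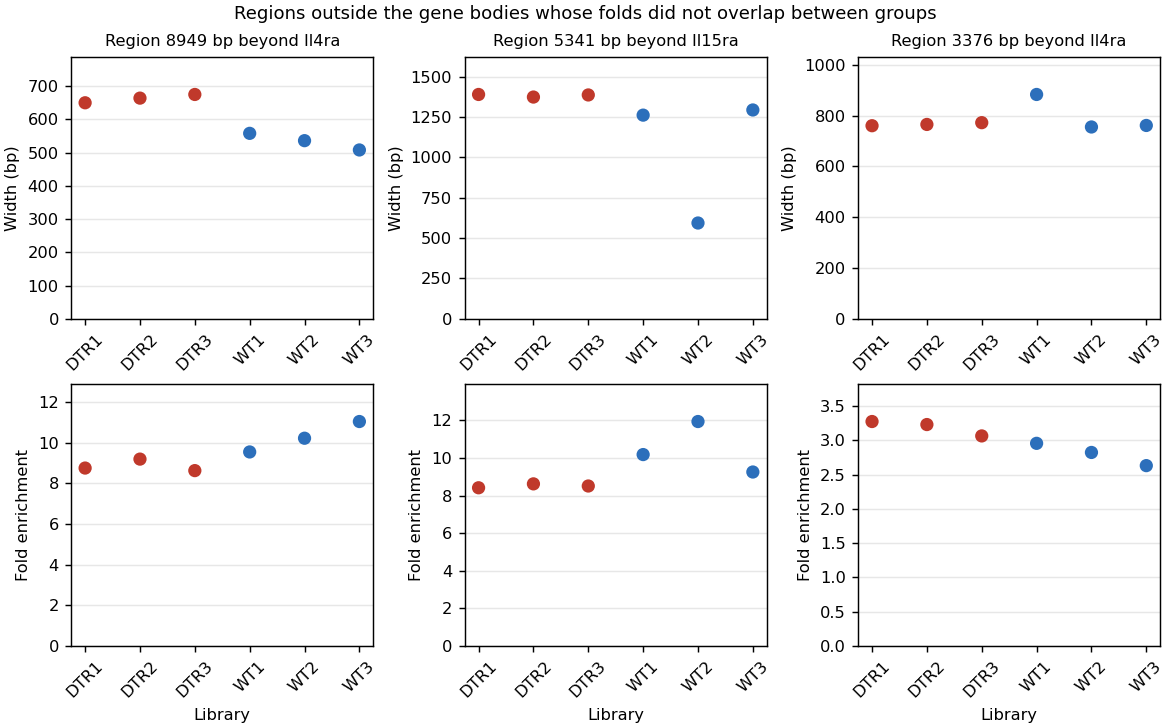
Width in bp and fold of the 3 regions outside gene bodies whose folds did not overlap between the groups, with a point per library, DTR left of WT. In the first and second region every DTR library is wider and lower in fold, and in the third every DTR library is higher in fold while the widths overlap.

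Beside these, another pair of regions at Il4ra stood apart in fold. A region 3376 bp beyond the gene (chromosome 7, 125582850 to 125583732) had folds of 3.28, 3.23 and 3.07 in DTR libraries and 2.96, 2.82 and 2.63 in WT libraries. It was the only one of the 41 with a higher fold in every DTR library, against 10.4% of all regions of 6 libraries. A narrow region in the gene body (chromosome 7, 125554522 to 125554701) had folds of 2.19, 2.33 and 2.19 in DTR libraries and of 2.35, 2.53 and 2.36 in WT libraries. With it, 3 of the 41 had a lower fold in every DTR library, against 5.15% of all. Leaving out 1 library loosens this call, and the counts then ran from 2 to 6 higher and from 3 to 8 lower, with 8 lower without DTR library 2 or WT library 1. Shares of all regions were not computed with a library left out. The median log2 ratio of fold, DTR over WT, was −0.0035 for the 41 regions and 0.0124 for all.

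Width set the groups apart more often than fold. Of the 41 regions, 9 were wider in every DTR library and 0 narrower, while of all regions of 6 libraries 13.0% were wider and 1.87% narrower. In addition to the 2 above, they were 2 at Il2rb, 2 at Il21r and 1 each at Il2ra, Il15 and Il15ra. At Il2rb, the region inside the upper end was 431, 395 and 391 bp wide in DTR libraries, against 301, 344 and 336 bp in WT libraries, with folds that overlapped. The one 3044 bp beyond that end (chromosome 15, 78514665 to 78515028) was 364, 336 and 332 bp wide in DTR libraries, against 312, 305 and 327 bp in WT libraries. At Il21r, a region in the gene body (chromosome 7, 125630239 to 125630765) was 432, 433 and 519 bp wide in DTR libraries and 410, 419 and 384 bp in WT libraries. WT library 2 had the narrowest peaks in 18 of the 41 regions and the widest in 1, and WT library 3 the narrowest in 10, whereas DTR library 2 had the narrowest in 1. The median log2 ratio of width was 0.04 for the 41 regions and 0.04 for all. Without WT library 1, 19 regions were wider in every DTR library, and the share of all regions was not computed for that setting. What the widths of the lists as a whole contribute at these loci was not tested.

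**Figure D4:**
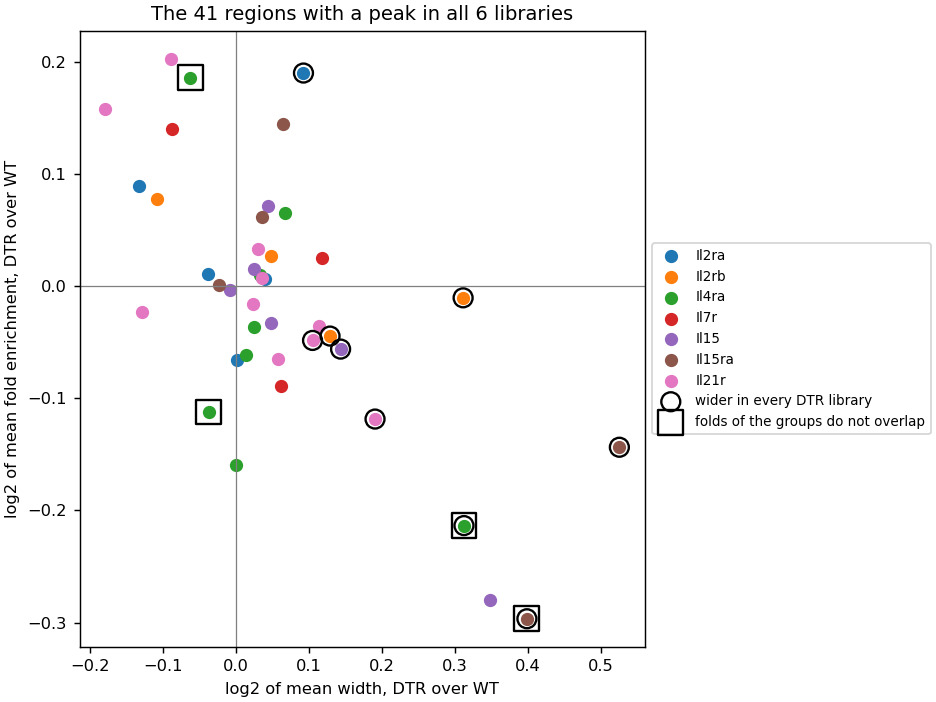
Log2 ratio of mean width and of mean fold, DTR over WT, for the 41 regions with a peak in all 6 libraries, coloured by gene. Circles mark the 9 regions wider in every DTR library and squares the 4 regions whose folds do not overlap. Both regions with a circle and a square lie at lower right, wider and lower in fold.

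Width and fold were tied to each other within a region. Among the 38 regions with exactly 1 peak in each library, the library with the widest peak had a lower fold than the one with the narrowest in 28 (73.7%), as in 68.6% of the 66548 such regions of the whole genome. A region in the gene body of Il15 (chromosome 8, 82351226 to 82351819) shows it, the strongest of the locus in all libraries but DTR library 1. Its widths were 557, 426 and 587 bp in DTR libraries and 581, 388 and 265 bp in WT libraries, and its folds 9.35, 11.97 and 8.76 against 8.82, 11.8 and 15.9. Within both groups the narrower of any pair of libraries had the higher fold, and the groups overlapped. A higher product of fold and width in every DTR library held for 4 of the 41 regions and a lower one for 0, against 17.7% and 2.69% of all. The 4 lay near Il4ra, at Il2rb and, in 2 cases, at Il21r.

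The middle peak of a locus gave 2 further genes. At Il21r the median fold was 5.08, 5.22 and 5.27 in DTR libraries and 5.59, 5.57 and 5.70 in WT libraries. At Il7r it was 4.65, 4.67 and 4.63 in DTR libraries and 4.86, 4.67 and 5.55 in WT libraries, where the closest values of the groups differed only in the third decimal. A lower median fold in every DTR library held for 5.86% of all genes and a higher one for 7.86%. At both genes the set of peaks itself varied. At Il21r a weak region (chromosome 7, 125623126 to 125623394; folds 3.06 and 3.13) was present in DTR libraries 1 and 2 alone, and at Il7r one (chromosome 15, 9508349 to 9508556; folds 2.55 to 3.44) was missing in WT library 3 alone. The median width stood apart at 0 of the 7 genes, against 10.7% of all genes with wider and 2.78% with narrower medians in every DTR library.

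No region split the libraries by group. Of the 48 regions, 0 were found in each DTR list while missing from each WT list, as 0.82% of all 92757 merged regions were, and 0 showed the opposite, as 0.0992% did. The other 7 regions were missing in 1 or more libraries of either group, 4 of them at Il2ra. Their weakest −log10 q values had a median of 3.35, against 56.5 for the 41 shared regions. Closest to a split were the region of DTR libraries 1 and 2 at Il21r given above and one in the gene body of Il2rb (chromosome 15, 78481187 to 78481667), with a peak in WT libraries 2 and 3 (folds 2.77 and 2.64) and in no DTR library. Both had 1 library of their group without a peak. An exception in strength was a region in Il2ra (chromosome 2, 11672254 to 11672432), with folds of 6.61 to 7.73 in 5 libraries and no peak in DTR library 3.

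Il2ra was open away from its start. Its strongest region lay 5220 bp before the start (chromosome 2, 11636932 to 11637572), with folds of 11.0, 10.3 and 11.0 in DTR libraries and 10.4, 10.7 and 11.0 in WT libraries. The groups overlapped, and the nearest other coding gene, Rbm17, was 33733 bp away. Inside the gene, the regions from 11662080 to 11662807 and from 11664013 to 11664624 had folds of 4.71 to 5.80 over the 6 libraries. At Il21r, a region in the gene body (chromosome 7, 125613424 to 125614169) had folds of 9.69, 10.2 and 9.22 in DTR libraries and 10.3, 9.72 and 10.4 in WT libraries, which overlapped. At Il7r the strongest region in all libraries but WT library 3 lay 1258 bp inside the gene (chromosome 15, 9528047 to 9528683), with folds of 6.13, 5.85 and 6.59 in DTR libraries and 5.41, 5.88 and 5.55 in WT libraries, which overlapped. The Il2rb locus was led by a region 4122 bp beyond the upper end (chromosome 15, 78515743 to 78516238), with folds of 6.79 to 6.96 in DTR libraries and 6.24 to 7.09 in WT libraries.

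Since Il2ra, Il2rb and Il7r are also genes of T and NK cells, the markers of those cells were read beside them. Within 10 kb of the 16 markers there were 36, 34 and 31 peaks in DTR libraries and 31, 33 and 35 in WT libraries. They covered 18573 to 19479 bp in DTR and 17303 to 18681 bp in WT libraries, with no peak at Cd8a, Gzmb or Ncr1. In covered length 0 of the 16 stood apart, against 19.5% higher and 0.844% lower of all genes with a peak. In highest fold 3 of the 16 were higher and 2 lower in every DTR library. Those calls held for 7.99% and 4.75% of the 16247 genes with a peak in all libraries. Cd3e and Cd8b1 lacked a peak in some libraries, so they and the markers without a peak could not be called in highest fold. The counts over 16 therefore understate the share of markers apart in highest fold. The promoters of Klrb1c, Tbx21 and Tcf7 had peaks in all 6 libraries. The part of such cells in the values above was not tested. In bulk chromatin, fewer cells of a type and less open chromatin per cell cannot be told apart.

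Of the 39 other genes of the pathway, few stood apart in cover, number of peaks or highest fold, and median folds were not counted. In covered length 2 were higher in every DTR library, among them Pik3cd, and 0 lower, against 19.5% and 0.844% of all genes with a peak. Il21 and Il13ra2 had no peak and could not stand apart. At Pik3cd, which encodes a catalytic subunit of PI3 kinase in leukocytes, peaks covered 9052, 9088 and 9319 bp in DTR libraries and 8535, 7135 and 7760 bp in WT libraries. Il2rg, the shared chain itself, had a peak at its promoter in all 6 libraries. Its locus was covered over 3460, 3153 and 3403 bp in DTR libraries and 3193, 2818 and 3116 bp in WT libraries, which overlapped. The highest fold at Il2rg overlapped too. Its median fold was 5.53, 6.16 and 6.18 in DTR libraries and 6.66, 6.33 and 6.95 in WT libraries. A lower median fold in every DTR library, as here, held for 5.86% of all genes and a higher one for 7.86%. In number of peaks 1 of the 39 stood apart, Bcl2, a survival gene, with 26, 24 and 25 in DTR libraries against 28, 30 and 29 in WT libraries. Fewer peaks in every DTR library held for 0.345% of all genes and more for 2.99%. The covered length at Bcl2 overlapped, at 15309 to 16284 bp in DTR and 15152 to 17420 bp in WT libraries. Its median fold was higher in every DTR library, at 4.04, 4.11 and 4.12 against 3.77, 3.57 and 3.76. In highest fold 1 of the 39 stood apart, Crlf2, the gene of a TSLP receptor chain. It had 5.34, 4.97 and 5.30 in DTR libraries and 5.43, 5.58 and 5.81 in WT libraries. A lower highest fold held for 4.75% of all genes and a higher one for 7.99%.

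By role, the 17 signalling genes had a median log2 ratio of cover of 0.09 and promoters with a peak in every library at 15 of the 15 genes that could be looked up. The 4 inhibitors of the CISH and SOCS family had a median of 0.06 and the 6 target genes of 0.03, with 0 genes of either apart in cover, against 19.5% higher and 0.844% lower of all genes. Of the cytokine genes, the promoters of Il2, Il9, Il13 and Il21 had no peak in any library, and Il21 had none within 10 kb. Among the 5 other receptor genes those without a promoter peak were Il9r and Il13ra2, and Il13ra2 had no peak within 10 kb.

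**Figure D5:**
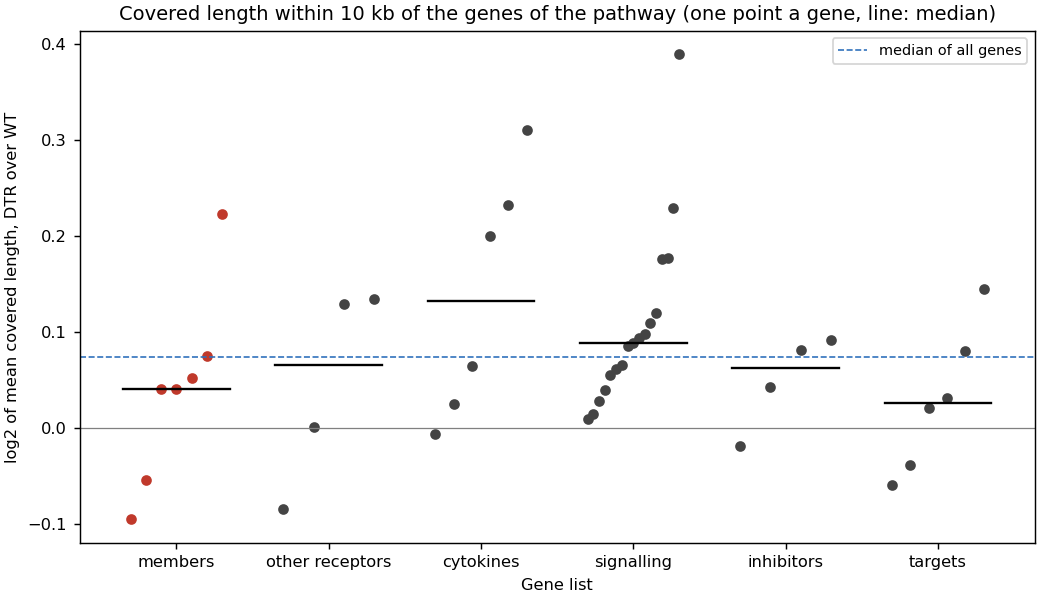
Log2 ratio of mean covered length, DTR over WT, with a point per gene and a line for each list's median, for the 7 members and the other genes of the pathway that had peaks in both groups. The medians lie between 0.03 and 0.13, around the median of all genes (dashed line, 0.07).

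Across the 6 libraries, the gene whose log2 covered length followed a member most closely among 43 candidates was Il13 for Il4ra (Pearson r = 0.951), Shc1 for Il15ra (r = 0.928) and Ccnd2 for Il2ra (r = 0.924). It was Stat6 for Il21r (r = 0.884), Crlf2 for Il7r (r = 0.877), Il9r for Il15 (r = 0.846) and Socs1 for Il2rb (r = 0.756). These points share library depth and peak width, and each is the highest of many.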

How the data were processed

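The tools named per the submitters' processing notes are MACS2, Bowtie2 (version 2.4.4), Bowtie and fastp. Parameters, any shift for the transposase offset and the genome build were not given in these sources. The authors deposited 1 list of broad peaks per library, called on that library alone, with the fold enrichment of each peak as a ratio, its −log10 p and −log10 q, and a score. The score was not used.

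The members and lists were chosen with earlier results of these data known. RefSeq genes of GRCm38.p6 were laid over the peaks. On 19 chromosomes, 32.8% to 52.3% of its promoters held a region of all 6 libraries, against 1.88% to 7.63% after moving them by 5 or 20 kb. Promoter sequences are RefSeq's, and 5 of the 7 genes had one. No exon annotation and no genome were used. Overlapping or touching peaks were merged (Python 3.11.15, pandas 2.3.3), and a region's width is the sum and its fold the highest of a library's peaks there. Groups stand apart when every DTR library lies above, or below, every WT library. No test was made: 3 libraries against 3 allow no exact permutation p under 0.1. Named were all members, Il2rg, other pathway genes apart in cover (1 of them is not reported here), each member's region with the highest lowest fold over the 6 libraries, promoters, and regions apart in fold and width. Bcl2, Crlf2 and the other regions given were chosen after their values were seen. Merging and calling were checked on simulated data. The search for a receptor motif in proteins was not run. The results were repeated with peaks of a −log10 q of at least 5, equal numbers of peaks per list, windows of 0 and 50 kb, merging within 500 bp, scaled folds and each library left out.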

Additional observations from a re-analysis of the deposited data

How the results depend on the processing

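All alternatives were planned except the product of fold and width, which was chosen after seeing the data. With a −log10 q of at least 5 and with equal lists of 77867 peaks, the differences in peaks (1.67 and 1) and cover (1297 and 1045 bp) of the 7 loci moved by less than 1 SD, and the counts of regions by less than 1.5 times. With peaks within 500 bp merged, no count of regions changed. With no extension of the gene bodies, 5 regions were wider in every DTR library, 0 had a higher and 1 a lower fold. The highest fold at Il15ra, DTR minus WT, then reversed to 0.764, since the strongest region lies outside the gene, and the groups overlapped in it, in cover at Il15ra and in highest fold at Il4ra. With 50 kb, 4 regions had a higher fold in every DTR library, 1 was narrower and 1 was WT-only. With folds divided by the library median, 2 regions were higher and 7 lower in every DTR library, and by fold times width 4 were higher and 0 lower. Shares of all regions were computed for the main setting and for fold times width alone. The counts of regions under the other settings have no such share beside them. Leaving out 1 library loosens the call: 2 to 6 regions then had a higher and 3 to 8 a lower fold, 9 to 19 were wider and 0 to 4 narrower, 0 to 1 were DTR-only (1 without DTR library 3) and 0 to 1 WT-only (1 without WT library 1). Covered length over the loci then ranged from −234 bp (without WT library 2) to 2086 bp (without WT library 1). Of 217 alternative values for single genes, 187 had a main value other than 0, and 166 of these kept its sign. No paired analysis was made, because the labels tie no DTR library to the WT library of the same number. Depth is unknown, so whether a peak is missing for want of reads cannot be told apart.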
